A study of Mus musculus with 14 samples.

Results

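The genes described here are Bex1, Fhod3, Heph, Spsb4, Nptx1 and Chchd6, 6 of the 6044 named genes of a filtered array table, and they were picked by name because earlier results of these same arrays placed them among the genes lowered in Thy-1+ basal mammary cells. That choice used the values of the basal arrays, so every difference between Thy-1+CD24medCD49fhigh cells and the other basal cells is given below as a description, without a test. No numerical threshold was applied to the list, and each gene was read by 1 probe set that carries its symbol alone (1448595_a_at for Bex1, 1435551_at for Fhod3, 1448696_at for Heph, 1451418_a_at for Spsb4, 1434877_at for Nptx1 and 1438659_x_at for Chchd6). The ending x_at marks a probe set whose probes can also match other transcripts, so the Chchd6 values carry that uncertainty. All 6 genes passed the authors' filter, which kept probe sets with a 4-fold difference between arrays, so each of them had to vary somewhere in the series.

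The study profiled mammary epithelium of virgin female C57BL/6 mice aged 6 to 8 weeks, untreated and without any stated genetic modification, on 14 Affymetrix Mouse Genome 430 2.0 arrays. Cells were separated with antibodies to CD24, CD49f (integrin alpha 6) and Thy-1, and the biotinylated antibodies listed with them were to CD45, Ter119, CD31 and CD140α, which mark blood cells, red cells, endothelium and, for the last (the receptor encoded by Pdgfra), fibroblasts. There were 3 arrays each of Thy-1+CD24medCD49fhigh cells (labelled stem cells by the submitters), Thy-1-CD24medCD49fhigh cells (labelled progenitors), CD24medCD49fmed cells (myoepithelial) and CD24highCD49fmed cells (luminal progenitors), and 2 arrays of CD24medCD49f-/low cells (differentiated luminal cells). The first 3 populations are called basal and the others luminal. The label of CD24medCD49fmed cells gives no Thy-1 status, so they may include cells that carry Thy-1, and since no label ties a replicate to its own animal or pool, errors and p-values measure the spread between these samples, which may be technical.

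The mammary duct is built of an inner layer of luminal cells, which line the lumen and make milk, and an outer basal layer, which contracts to eject it and is the compartment in which transplantable repopulating cells are enriched. The genes do not belong to a common pathway. Bex1 encodes a small X-linked adaptor protein linked to neurotrophin receptor signalling, Fhod3 a formin that assembles actin filaments and organises sarcomeres in heart muscle, and Heph hephaestin, a copper-dependent ferroxidase that helps iron leave cells. Spsb4 encodes an adaptor with a SPRY domain and a SOCS box that brings substrates to a ubiquitin ligase, Nptx1 a secreted pentraxin best known at synapses, where it gathers AMPA receptors, and Chchd6 a subunit of the MICOS complex that shapes mitochondrial cristae.

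Promoter windows are shown for 3 of the genes, from the RefSeq promoter table (mouse build GRCm38.p6), because genes lowered in the same arrays could be compared there for shared sequence. The windows are those of Bex1 (chrX:136215464-136215763), Chchd6 (chr6:89595603-89595902) and Spsb4 (chr9:97018306-97018605), all on the minus strand, and none is printed for the other genes. Each window runs from 250 bases before to 50 bases after the annotated start, 5′ to 3′ in the direction of transcription, and capitals mark every match on either strand to 4 motifs. The E-box searched for, a site of helix-loop-helix factors, had the letters CACGTG. The TATA box, which positions transcription starts, was searched as TATAAA. The CCAAT box was searched as its name spells it, and the GC box, a site of Sp family factors, had the letters GGGCGG.
Bex1: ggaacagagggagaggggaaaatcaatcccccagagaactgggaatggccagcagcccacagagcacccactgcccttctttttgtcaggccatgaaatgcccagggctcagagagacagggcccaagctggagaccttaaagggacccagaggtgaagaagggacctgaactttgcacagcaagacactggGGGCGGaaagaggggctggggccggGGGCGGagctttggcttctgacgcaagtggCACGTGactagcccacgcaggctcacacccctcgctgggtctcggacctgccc
Chchd6: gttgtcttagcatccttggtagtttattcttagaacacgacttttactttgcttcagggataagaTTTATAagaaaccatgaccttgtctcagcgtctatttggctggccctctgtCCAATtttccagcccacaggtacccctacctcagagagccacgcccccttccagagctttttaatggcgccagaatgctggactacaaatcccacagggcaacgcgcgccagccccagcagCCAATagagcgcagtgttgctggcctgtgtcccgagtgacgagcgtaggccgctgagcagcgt
Spsb4: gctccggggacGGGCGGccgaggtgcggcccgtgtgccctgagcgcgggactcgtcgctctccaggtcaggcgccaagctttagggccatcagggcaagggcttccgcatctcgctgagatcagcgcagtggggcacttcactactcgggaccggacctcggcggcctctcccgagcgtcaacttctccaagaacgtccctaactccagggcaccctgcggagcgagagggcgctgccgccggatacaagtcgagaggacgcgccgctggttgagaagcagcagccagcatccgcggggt
The 3 windows had no motif in all of them. Bex1 held 1 E-box and 2 GC boxes, Spsb4 held 1 GC box, and Chchd6 held 1 TATA box and 2 CCAAT boxes, and none of these matches overlapped another. Over 32851 promoters of the same length, the E-box was found in 7.15%, the TATA box in 13.6%, the CCAAT box in 37.4% and the GC box in 35.7%. CpG content differed widely, with 32 CpG in the Spsb4 window (90.5% of promoters had fewer), 13 in Chchd6 (62.1% had fewer) and 8 in Bex1 (51.4% had fewer), against a median of 7. A match is a description of letters and says nothing about binding, which was not measured.

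Values are log2 as the authors deposited them, with each probe set centred so that 0 is its mean over the 14 arrays. They can be compared between arrays for 1 gene but give no absolute level, so no gene is ranked above another. Several arrays stood apart from their group. The median of all probe sets was -0.75, 0.09 and -0.52 in Thy-1+ replicates 1, 2 and 3, and between -0.15 and 0.29 in the other 11 arrays, so the main results are also given after every array was centred on its own median, and values not marked as centred are as deposited. Thy1 mRNA itself was 2.00 and 3.03 in Thy-1+ replicates 1 and 3, above all other arrays, but -0.07 in replicate 2, inside the range of -0.77 to 0.73 of the 6 other basal arrays. As deposited, replicate 2 lay above the Thy-1-CD24medCD49fhigh arrays (-0.77, -0.10 and -0.36). After centring it was at -0.17, below replicate 2 of those cells at 0.05. The array labelled Thy-1+ replicate 2 was therefore not set apart by the transcript of the sorted surface protein as replicates 1 and 3 were. Results are given with and without it. Of 12 basal epithelial markers measured, among them the keratins Krt5 and Krt14, the mean was 0.59, 1.49 and 0.47 in Thy-1+ arrays, 1.76, 0.33 and 1.87 in Thy-1-CD24medCD49fhigh arrays, 1.46 to 1.70 in CD24medCD49fmed arrays and at most -2.15 in luminal arrays, so every array labelled basal lay above every array labelled luminal.

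All 6 genes had a lower mean in Thy-1+CD24medCD49fhigh cells than in Thy-1-CD24medCD49fhigh and CD24medCD49fmed cells, with log2 differences of -2.79 to -2.02, but for 4 of them the differences were much smaller in replicate 2 than in replicates 1 and 3. Spsb4 and Nptx1 were lower in each of the 3 Thy-1+ arrays than in any of the 6 other basal arrays. Bex1, Fhod3, Heph and Chchd6 lay inside the range of the 6 other basal arrays in Thy-1+ replicate 2, although Bex1, Fhod3 and Chchd6 were still below all 3 Thy-1-CD24medCD49fhigh arrays there. Deviations from the group means correlated between Thy-1+ and CD24medCD49fmed arrays of the same number. These arrays are therefore also compared in pairs, although no label pairs them. Within these pairs each of the 6 genes was lower in the Thy-1+ array in 3 of 3 pairs, before and after centring. The differences within pairs 1, 2 and 3 were -2.85, -0.70 and -2.90 for Bex1, -3.56, -0.36 and -3.66 for Fhod3, and -3.37, -0.47 and -3.04 for Heph. They were -3.12, -0.43 and -1.39 for Chchd6, -1.99, -1.26 and -2.99 for Spsb4, and -2.22, -1.70 and -2.62 for Nptx1. As deposited, pair 2 showed the smallest difference for every gene. The genes were chosen for low values in these Thy-1+ arrays, and the share of all rows lower in every pair was not counted. Nothing is therefore read from the count of pairs. In bulk samples such as these, fewer cells of a type and less RNA per cell cannot be told apart.

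**Figure D1:**
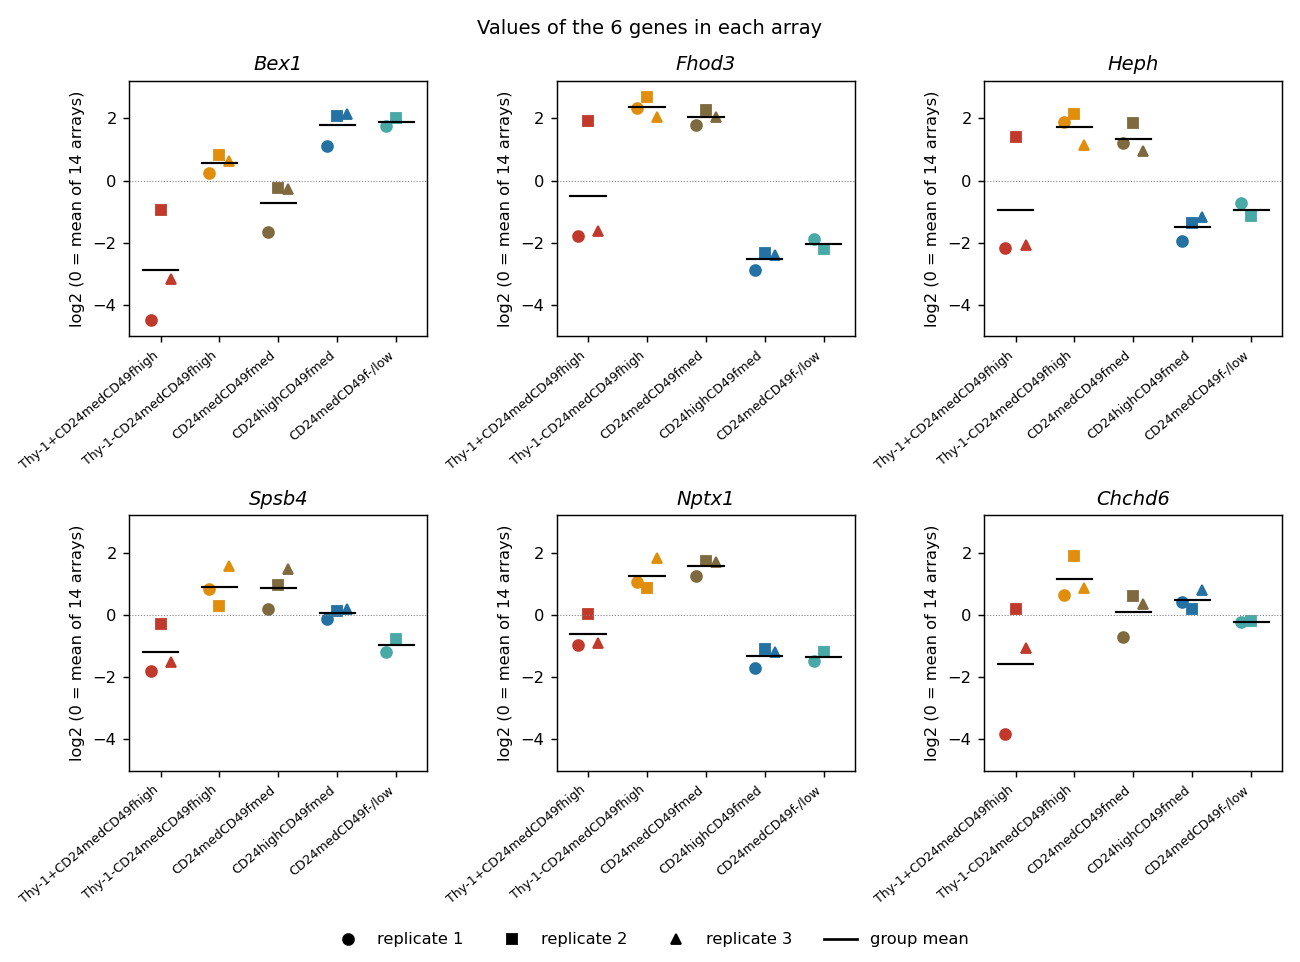
Value of each gene (log2, 0 = mean of 14 arrays, same vertical scale in each panel) in every array of the 5 sorted populations, with replicate numbers as symbols and group means as lines. Thy-1+ replicates 1 and 3 lie below the other basal arrays for all 6 genes, while replicate 2 lies among them for Bex1, Fhod3, Heph and Chchd6, and Fhod3, Heph and Nptx1 are low and Bex1 is high in luminal arrays.

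Bex1, the neurotrophin-linked adaptor, was -4.49, -0.95 and -3.18 in the Thy-1+ arrays. It was 0.24, 0.83 and 0.62 in Thy-1-CD24medCD49fhigh arrays, -1.64, -0.25 and -0.28 in CD24medCD49fmed arrays, 1.10, 2.09 and 2.14 in CD24highCD49fmed arrays and 1.76 and 2.01 in CD24medCD49f-/low arrays. The gene was highest in luminal cells and lowest in Thy-1+ cells. Its group means were 1.88 ± 0.18 (SD, n = 2) in CD24medCD49f-/low and 1.78 ± 0.58 (n = 3) in CD24highCD49fmed cells, which overlapped, then 0.56 ± 0.30 (n = 3) in Thy-1-CD24medCD49fhigh, -0.72 ± 0.80 (n = 3) in CD24medCD49fmed and -2.87 ± 1.79 (n = 3) in Thy-1+ cells. Only the last neighbours in this order overlapped among the basal populations, because CD24medCD49fmed replicate 1 lay below Thy-1+ replicate 2. The log2 difference of Bex1 in Thy-1+ cells from the other basal populations, each weighted equally, was -2.79 (SE 0.61), or -3.75 (SE 0.50) without Thy-1+ replicate 2.

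Fhod3, the formin, was -1.77, 1.92 and -1.61 in the Thy-1+ arrays. Its values were 2.32, 2.69 and 2.04 in Thy-1-CD24medCD49fhigh arrays and 1.79, 2.28 and 2.05 in CD24medCD49fmed arrays, against -2.89, -2.34 and -2.38 in CD24highCD49fmed and -1.89 and -2.21 in CD24medCD49f-/low arrays. Thy-1+ replicate 2 lay among the other basal arrays, and replicates 1 and 3 sat just above the luminal ones as deposited. After centring they were at -1.02 and -1.09, further above the highest luminal array at -1.94. The means were 2.35 ± 0.33 (SD, n = 3), 2.04 ± 0.25 (n = 3), -0.49 ± 2.08 (n = 3), -2.05 ± 0.23 (n = 2) and -2.54 ± 0.31 (n = 3) in Thy-1-CD24medCD49fhigh, CD24medCD49fmed, Thy-1+, CD24medCD49f-/low and CD24highCD49fmed cells, and the first 3 of these overlapped with their neighbours. The difference of Thy-1+ cells from both other basal populations was -2.68 (SE 0.63), or -3.88 (SE 0.37) without replicate 2.

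Heph, the ferroxidase, gave -2.16, 1.39 and -2.07 in the Thy-1+ arrays. Values were 1.87, 2.14 and 1.15 in Thy-1-CD24medCD49fhigh arrays, 1.21, 1.86 and 0.96 in CD24medCD49fmed arrays, -1.94, -1.37 and -1.17 in CD24highCD49fmed arrays and -0.72 and -1.15 in CD24medCD49f-/low arrays. As with Fhod3, Thy-1+ replicate 2 was indistinguishable by range from the other basal arrays, but here replicates 1 and 3 fell below every luminal array. After each array was centred on its median, those arrays were -1.41 and -1.55, inside the luminal range of -2.24 to -0.77. Thy-1-CD24medCD49fhigh (1.72 ± 0.51, SD, n = 3) and CD24medCD49fmed cells (1.34 ± 0.46, n = 3) overlapped at the top of the order, and Thy-1+ arrays (-0.95 ± 2.02, n = 3) overlapped with both CD24medCD49f-/low (-0.94 ± 0.31, n = 2) and CD24highCD49fmed arrays (-1.49 ± 0.40, n = 3) as deposited. The luminal populations themselves did not overlap, CD24medCD49f-/low being the higher. The difference from both other basal populations was -2.48 (SE 0.64), or -3.65 (SE 0.42) without Thy-1+ replicate 2.

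Nptx1, the secreted pentraxin, was -0.96, 0.03 and -0.90 in Thy-1+ arrays. It was 1.05, 0.87 and 1.85 in Thy-1-CD24medCD49fhigh arrays and 1.26, 1.73 and 1.72 in CD24medCD49fmed arrays, but -1.69, -1.09 and -1.19 in CD24highCD49fmed arrays and -1.48 and -1.19 in CD24medCD49f-/low arrays. The Thy-1+ arrays therefore lay in the gap between all luminal and all other basal arrays, with no overlap on either side. Means were 1.57 ± 0.27 (SD, n = 3) in CD24medCD49fmed and 1.26 ± 0.52 (n = 3) in Thy-1-CD24medCD49fhigh cells, -0.61 ± 0.56 (n = 3) in Thy-1+ cells, and -1.32 ± 0.32 (n = 3) and -1.34 ± 0.20 (n = 2) in CD24highCD49fmed and CD24medCD49f-/low cells. The difference of -2.02 (SE 0.44) from both other basal populations became -2.34 (SE 0.40) without Thy-1+ replicate 2.

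Spsb4, the ubiquitin ligase adaptor, was -1.80, -0.28 and -1.51 in Thy-1+ arrays. It was 0.84, 0.29 and 1.57 in Thy-1-CD24medCD49fhigh arrays, 0.19, 0.98 and 1.48 in CD24medCD49fmed arrays, -0.13, 0.14 and 0.19 in CD24highCD49fmed arrays and -1.19 and -0.77 in CD24medCD49f-/low arrays. Every Thy-1+ array was below every other basal array and, as deposited, below every CD24highCD49fmed array (after centring, Thy-1+ replicate 2 at -0.38 passed CD24highCD49fmed replicate 1 at -0.42), while Thy-1+ and CD24medCD49f-/low arrays overlapped. The means ran from 0.90 ± 0.64 (SD, n = 3) and 0.88 ± 0.65 (n = 3) in Thy-1-CD24medCD49fhigh and CD24medCD49fmed cells through 0.07 ± 0.17 (n = 3) in CD24highCD49fmed cells to -0.98 ± 0.30 (n = 2) in CD24medCD49f-/low and -1.20 ± 0.81 (n = 3) in Thy-1+ cells. The difference from both other basal populations was -2.09 (SE 0.49), or -2.55 (SE 0.47) without Thy-1+ replicate 2.

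Chchd6, the cristae protein, was -3.83, 0.19 and -1.05 in Thy-1+ arrays, the widest spread relative to its difference of the 6 genes. It was 0.65, 1.91 and 0.88 in Thy-1-CD24medCD49fhigh arrays, -0.71, 0.62 and 0.34 in CD24medCD49fmed arrays, 0.41, 0.20 and 0.80 in CD24highCD49fmed arrays and -0.24 and -0.19 in CD24medCD49f-/low arrays. All neighbouring groups in the order of its means overlapped, from 1.15 ± 0.67 (SD, n = 3) in Thy-1-CD24medCD49fhigh through 0.47 ± 0.30 (n = 3) in CD24highCD49fmed, 0.09 ± 0.70 (n = 3) in CD24medCD49fmed and -0.22 ± 0.03 (n = 2) in CD24medCD49f-/low to -1.56 ± 2.06 (n = 3) in Thy-1+ cells. The difference from both other basal populations, -2.18 (SE 0.66), rested largely on a single array, being -1.05 (SE 0.51) without Thy-1+ replicate 1 and -3.06 (SE 0.67) without replicate 2.

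Arrays of Thy-1+ cells were low for many genes besides these. Of all 7190 rows (named genes and unnamed probe sets), 52.3% lay below the range of the 6 other basal arrays in Thy-1+ replicate 1 and 44.9% in replicate 3, as did all 6 genes in both arrays. In replicate 2 the share was 4.98%, and the genes below the range were Spsb4 and Nptx1. After centring each array on its median the shares were 31.7%, 6.34% and 29.4%, and the same genes lay below the range in each array except that Chchd6 lay inside it in replicate 3. With all 3 Thy-1+ arrays, 2 of the 6 genes did not overlap with the other basal arrays, against 1.03% of all rows lower in this way (0.793% after centring, the same 2 genes). Without replicate 2 all 6 did not overlap, against 31.8% of rows, and 5 of 6 (all but Chchd6) after centring, against 14.3%. Because the genes were chosen from this contrast, nothing is read from these counts.

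The median difference of the 6 genes from both other basal populations was -2.33, where the median of all rows was -0.46. Centring moved the median of all rows to -0.01 and the gene differences to between -1.57 for Nptx1 and -2.34 for Bex1, with a median of -1.88. Against Thy-1-CD24medCD49fhigh cells alone the differences were -3.44 for Bex1, -2.84 for Fhod3, -2.67 for Heph, -2.10 for Spsb4, -1.87 for Nptx1 and -2.71 for Chchd6 (all rows -0.42), and 5 genes, all but Heph, did not overlap (4.8% of rows lower). Against CD24medCD49fmed cells alone they were -2.15, -2.53, -2.29, -2.08, -2.18 and -1.65 in the same order (all rows -0.51), and Spsb4 and Nptx1 did not overlap (6.86% of rows lower). After centring the differences lay between -3.02 for Bex1 and -1.45 for Nptx1 in the former comparison and between -2.04 for Fhod3 and -1.16 for Chchd6 in the latter. These comparisons share the same Thy-1+ arrays.

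**Figure D2:**
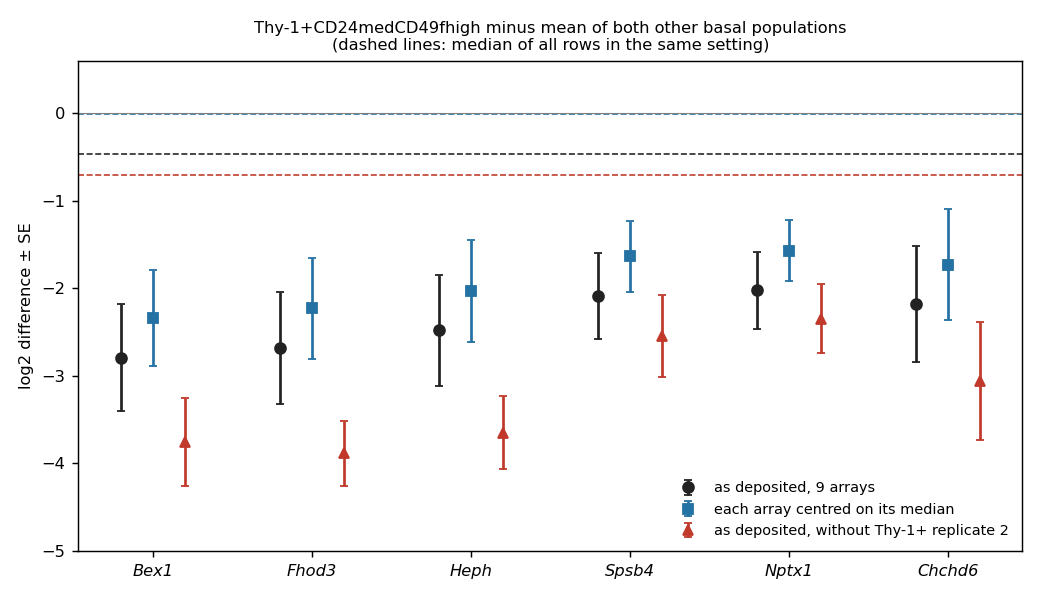
Difference (log2 ± SE from limma) of Thy-1+CD24medCD49fhigh cells from the other basal populations for each gene, as deposited, with arrays centred on their medians, and without Thy-1+ replicate 2, with dashed lines for the median of all rows in each setting. All differences lie below the median of all rows of their setting, the ones without replicate 2 lie lowest, and the centred ones are the smallest.

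As deposited, fibroblast and Schwann cell marker means were highest in the Thy-1+ arrays in which these genes were low. Other marker lists did not follow the replicates in this way as deposited, but among basal arrays the myeloid list did after centring. The mean of the 6 genes was -2.50, 0.38 and -1.72 in Thy-1+ replicates 1, 2 and 3, and 0.35 to 1.46 in the other basal arrays. Over 9 of 10 fibroblast markers in the table, the array mean was 1.36, 0.22 and 1.89 in the Thy-1+ arrays, 0.03 to 0.33 in Thy-1-CD24medCD49fhigh, 0.41 to 0.84 in CD24medCD49fmed and at most -0.51 in luminal arrays. Over 5 of 10 Schwann cell and myelin markers (Sox10, Mbp, Cdh19, Erbb3 and Ngfr) it was 1.01, 0.05 and 1.82 in the Thy-1+ arrays and -0.48 to 0.45 in the other basal arrays. Cdh19, a Schwann cell cadherin, was 4.10, 0.53 and 3.96 in the Thy-1+ arrays and at most 0.18 in the other basal ones, whereas Sox10, the lineage's transcription factor, was -2.79, 0.54 and 0.10. Over 8 of 10 endothelial markers the mean was 2.81, 0.21 and -0.22 in Thy-1+ arrays, so it was high in replicate 1 and not in replicate 3, and it was also 2.29 in CD24medCD49fmed replicate 1. Dividing-cell markers were at -0.41, -0.27 and 0.20 in Thy-1+ arrays, 0.53 to 1.18 in Thy-1-CD24medCD49fhigh and -0.60 to 0.29 in CD24medCD49fmed arrays. Luminal markers were at -1.14, -1.29 and -0.17 against -1.63 to 0.08 in the other basal arrays, and myeloid markers at -0.44, -0.17 and 0.29 against -0.78 to -0.32. Centred, the mean of the 3 myeloid markers measured was 0.31, -0.26 and 0.81 in Thy-1+ arrays against -0.97 to -0.22 in the other basal arrays. It was 1.71 and 0.69 in CD24medCD49f-/low arrays. Of the 12 basal markers, 4 lay below the range of the other basal arrays in Thy-1+ replicate 1, none in replicate 2 and 7 in replicate 3 (2, 0 and 5 after centring). The shares of all rows below it were 52.3%, 4.98% and 44.9% (31.7%, 6.34% and 29.4% after centring). Those below in replicate 1 were Trp63, a defining basal transcription factor, the smooth muscle genes Acta2 and Mylk, and Oxtr, the oxytocin receptor. Myh11, also a smooth muscle gene, lay above the range there. After centring only Trp63 and Mylk were below in replicate 1, and Myh11 and Lama3 were above. In replicate 3 they were Acta2, Myh11, Mylk, Cnn1, Oxtr, Lama3 and Tagln, most of them contractile genes, while Krt5 and Krt14 lay above the range and Trp63 inside it. Since values are centred on each probe set's mean, none of these markers can be called absent, and the part of these cell types in the low values was not tested.

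**Figure D3:**
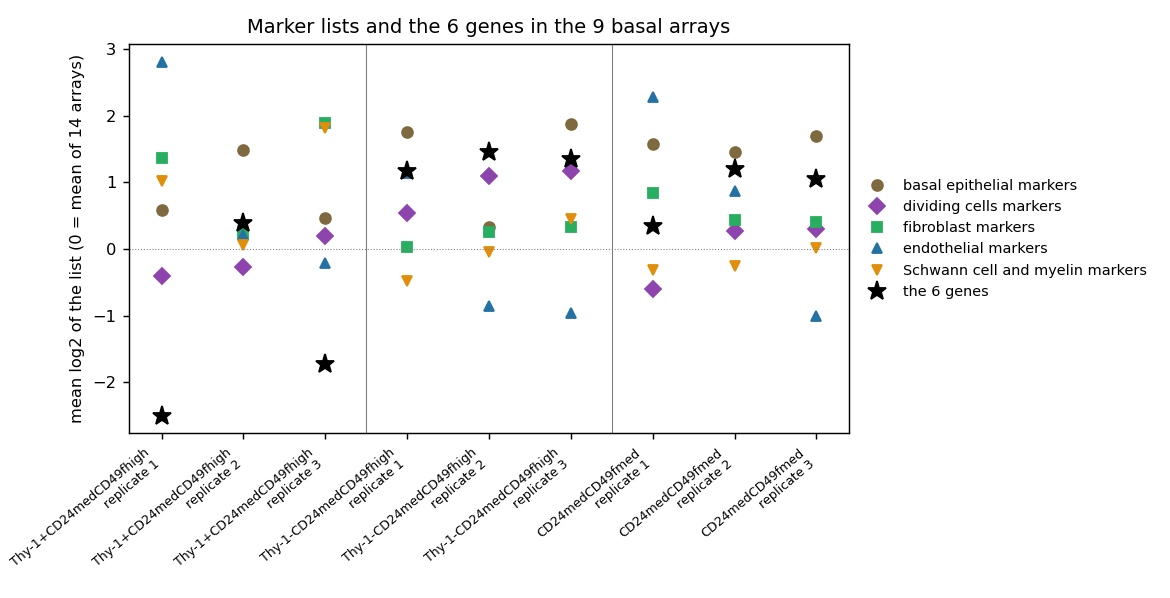
Mean log2 value of 5 marker lists and of the 6 genes (stars) in each of the 9 basal arrays (0 = mean of 14 arrays). In Thy-1+ replicates 1 and 3 the 6 genes are at -2.50 and -1.72 while fibroblast and Schwann cell markers are higher than in any other basal array, and in replicate 2 the genes are at 0.38 and those markers at 0.22 and 0.05.

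Away from the Thy-1+ arrays the genes followed different lineage patterns. Fhod3, Heph and Nptx1 were lower in each of the 5 luminal arrays than in any of the 6 Thy-1-CD24medCD49fhigh and CD24medCD49fmed arrays, with log2 differences of -4.49 (SE 0.20), -2.75 (SE 0.25) and -2.74 (SE 0.22) between population means averaged by layer, where 15.9% of all rows were lower without overlap. Bex1 ran the other way and was 1.91 (SE 0.29) higher in luminal cells without overlap (19.7% of rows higher), though CD24highCD49fmed replicate 1 reached the Thy-1-CD24medCD49fhigh arrays after centring. Spsb4 was -1.35 (SE 0.28) in luminal relative to these basal cells and overlapped as deposited but not after centring (18.6% of rows lower), and Chchd6 was -0.49 (SE 0.29) and overlapped. The median of all rows was 0.14 in this comparison, which is given without a test because the level of these basal arrays entered the choice of genes.

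The profiles over the 14 arrays showed the same grouping, given here as a description because the arrays share populations. Fhod3 and Heph had a Pearson correlation of 0.95, Fhod3 and Nptx1 of 0.94 and Heph and Nptx1 of 0.87, and centring left these at 0.96, 0.93 and 0.85. Bex1 correlated with Chchd6 at 0.74 (0.63 after centring) but with Fhod3, Heph and Nptx1 at -0.16, 0.10 and -0.15 (-0.30, -0.09 and -0.37). Spsb4 was at 0.77 with Nptx1, 0.71 with Heph and 0.66 with Fhod3 (0.78, 0.68 and 0.69 after centring). It was at 0.70 with Chchd6 and 0.39 with Bex1 (0.57 and 0.13).

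**Figure D4:**
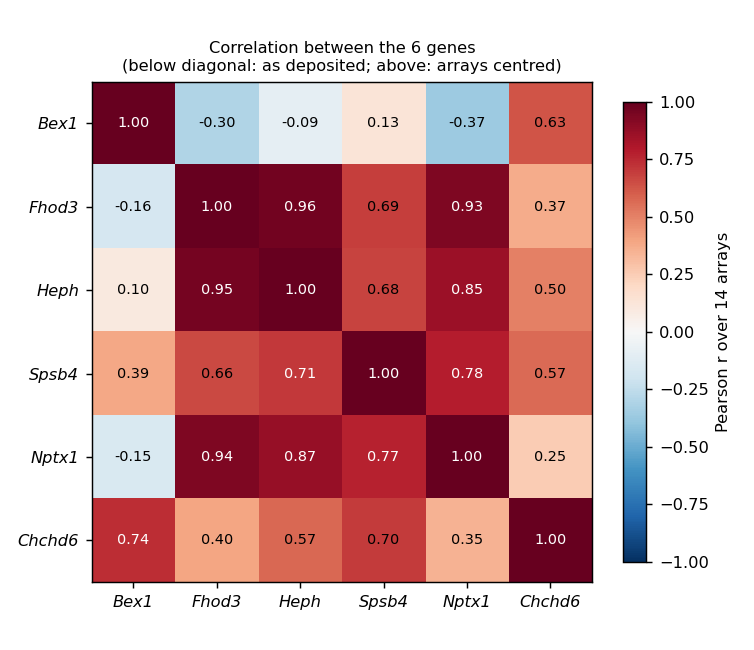
Pearson correlation between the 6 genes over 14 arrays, below the diagonal as deposited and above it after centring each array on its median, with colour from -1 to 1. Fhod3, Heph and Nptx1 form a block of 0.85 to 0.96, and Bex1 stands apart from it with values of -0.37 to 0.10.

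Among all named genes, those nearest to each profile by Pearson correlation over 14 arrays were mostly not members of the list. Fhod3 was closest to Pla2g7, Rai2 and Bambi (0.99 each), and these also led after centring. Nptx1 was closest to Lgr5, a receptor for R-spondins and a marker of several stem cell types, at 0.95, followed by Cpm at 0.95 and Epb41l3 at 0.95, and Nxn led after centring at 0.95 with Lgr5 next. Heph was closest to Gprasp2 (0.97), Pawr (0.96) and the non-muscle myosin gene Myh10 (0.96), and after centring to Fhod3 (0.96). Bex1 was closest to Acot13, a mitochondrial thioesterase, at 0.97, then to Slc44a3 and Pex11a at 0.96 each, but after centring to Txnl1, Nfu1 and Slc44a3 (0.95, 0.93 and 0.93). Chchd6 was closest to Thap4 (0.98), Lrwd1 (0.98) and Ccdc22 (0.98), and after centring to Lrwd1, Mrpl13 and Sec22b (0.96, 0.95 and 0.94). Spsb4, with the weakest match of the 6, was closest to Exosc1 (0.90), Mns1 (0.90) and Rdh11 (0.89), and after centring to Rdh11, Mns1 and Blmh (0.88, 0.84 and 0.84). Of the other listed genes, Heph ranked 44 and Nptx1 105 for likeness to Fhod3, while Chchd6 ranked 1287 for likeness to Bex1.

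Thy-1-CD24medCD49fhigh and CD24medCD49fmed cells could be compared without any Thy-1+ array, in a contrast other than the one that chose the genes, although the level of both had entered that choice. Bex1 was 1.29 (SE 0.42, 95% interval 0.35 to 2.22) higher in Thy-1-CD24medCD49fhigh cells and Chchd6 1.06 (SE 0.45, interval 0.05 to 2.08) higher, with no overlap between the arrays for either gene, where 1.81% of rows were higher in that way. In limma neither passed (adjusted p = 0.999), and because of the choice nothing is read from the missing overlap or from these intervals. Dividing-cell markers moved the same way, with 8 of 8 above 0 (median 0.92) and array means of 0.53 to 1.18 against -0.60 to 0.29. Endothelial markers ran the other way, with 7 of 8 below 0 (median -1.07) and array means of -0.95 to 1.14 against -1.01 to 2.29, and the part of either in these differences was not tested. The differences of Fhod3 (0.31, SE 0.31), Heph (0.38, SE 0.37), Spsb4 (0.02, SE 0.44) and Nptx1 (-0.31, SE 0.35) were within the spread between arrays, with adjusted p = 0.999 in limma. No row of 7190 was called in this comparison (0%), and 84 rows (1.17%) had an unadjusted p under 0.05. The intervals of these 4 genes reached from -1.09 to 1.21 at their widest, so differences of that size remain possible.

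CD24highCD49fmed and CD24medCD49f-/low cells, whose arrays had no part in the choice, were compared in 5 arrays. Spsb4 was 1.04 (SE 0.21, 95% interval 0.57 to 1.52) higher in the luminal progenitor population, CD24highCD49fmed, in 3 of 3 against 2 of 2 arrays without overlap, as were 32.2% of all rows. It passed limma's test with an adjusted p = 0.0308, where 3.02% of rows were called higher and 2.57% lower. In limma the call was lost with an adjusted p = 0.289 without CD24medCD49f-/low replicate 1, 0.0761 without CD24highCD49fmed replicate 2, 0.113 without CD24highCD49fmed replicate 3 and 1.00 with all 14 arrays in the fit. Markers of dividing cells differed in the same direction, with 7 of 8 called higher in CD24highCD49fmed cells (Mki67 by 2.80, SE 0.35, adjusted p = 0.0113 in limma), and their part in the Spsb4 difference was not tested.

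Chchd6 was 0.69 (SE 0.22) higher in CD24highCD49fmed cells without overlap (32.2% of rows higher), with an adjusted p = 0.0944 in limma. Fhod3 and Heph differed by -0.48 (SE 0.23) and -0.56 (SE 0.27) without overlap (15.2% of rows lower), with adjusted p = 0.212 and 0.216 in limma. Bex1 (-0.11, SE 0.31, adjusted p = 0.848) and Nptx1 (0.01, SE 0.23, adjusted p = 0.975) showed no difference beyond their spread in limma, with intervals of -0.83 to 0.61 and -0.51 to 0.54. Among all rows 5.59% were called, and 27% had an unadjusted p under 0.05.

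**Figure D5:**
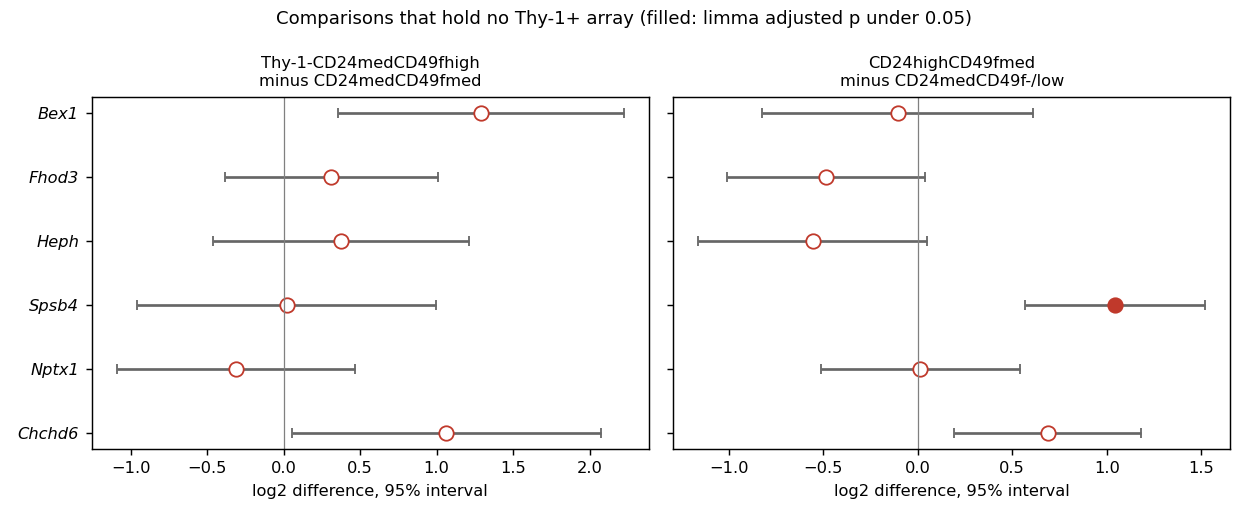
Difference (log2, with 95% interval from limma) of each gene in the 2 comparisons that hold no Thy-1+ array, with filled points for an adjusted p under 0.05. Spsb4 in CD24highCD49fmed minus CD24medCD49f-/low cells, at 1.04, is the filled point. The left panel is a description, because the level of both its populations entered the choice of genes.

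Relatives and partners of the 6 genes were taken from lists drawn up from general knowledge, and 41 of the 98 listed names were in the filtered table. In Thy-1+ cells relative to both other basal populations 30 of the 41 were below 0 and 11 above, and after centring 23 were below and 18 above. The median of all rows was itself -0.46 there (-0.01 after centring), so most rows were below 0, and nothing is read from these counts. Between Thy-1-CD24medCD49fhigh and CD24medCD49fmed cells none of the 41 passed limma's test, with 1 at an unadjusted p under 0.05. Between the luminal populations 3 were called higher in CD24highCD49fmed cells and 5 lower, where 3.02% and 2.57% of all rows were.

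Among 7 measured genes of the Bex and Tceal families and the neurotrophin receptors, the median difference of Thy-1+ cells from both other basal populations was 0.08 (0.54 after centring), with 4 above and 3 below 0. Bex2, the closest relative of Bex1 in the table, differed by -0.52 (SE 0.44), or -0.07 (SE 0.41) after centring, and was at -1.13 in luminal relative to Thy-1-CD24medCD49fhigh and CD24medCD49fmed cells, opposite in sign to Bex1. Ngfr, the p75 neurotrophin receptor that Bex1 binds and a Schwann cell marker as well, was 1.34, 0.69 and 1.78 in Thy-1+ arrays and -0.39 to 0.63 in other basal arrays. No gene of this group passed between the luminal populations.

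Among 4 measured formins the median difference in Thy-1+ cells was -0.32, above the -0.46 of all rows, and after centring it was 0.13, with 2 above and 2 below 0. Diaph1 and Daam1, which assemble actin filaments, were at -0.51 (SE 0.46) and -0.50 (SE 0.42), and at -0.06 and -0.05 after centring. Fmnl1 went the other way, at 1.54, -0.14 and 0.51 in Thy-1+ arrays against -0.41 to 0.24 in the other basal arrays. Diaph2 was split, at 1.38, 0.23 and -1.80 against -0.13 to 0.26. None passed limma's test in either of the tested comparisons without Thy-1+ arrays. None showed the luminal deficit of Fhod3, their luminal differences lying between -0.21 and 0.56.

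Iron and copper handling, the field of Heph, had 14 measured genes, of which 12 were below 0 in Thy-1+ cells, with a median of -0.66 against -0.46 for all rows (9 below 0 and a median of -0.21 against -0.01 after centring). Tfrc, the receptor that imports transferrin-bound iron, was at -1.12 (SE 0.44), Fth1, the ferritin heavy chain, at -1.06 (SE 0.54) and Cp, ceruloplasmin, the plasma relative of hephaestin, at -0.95 (SE 0.49). Centred, Thy-1+ values were -0.92, -0.46 and -0.40 for Tfrc, -1.16, 0.06 and 0.14 for Fth1, and -0.55, 0.43 and -1.18 for Cp. The other basal arrays spanned -0.26 to 0.33, -0.88 to 1.09 and -0.02 to 0.23 for these genes. Lcn2, a secreted siderophore carrier, was -2.01, 0.50 and -2.17 in the Thy-1+ arrays and -0.05 to 0.94 in the other basal arrays, low in the same replicates as Heph. Between the luminal populations 2 of the 14 genes were called higher in CD24highCD49fmed cells (3.02% of all rows), the metalloreductases Steap1 (1.38, SE 0.20, adjusted p = 0.0129 in limma) and Steap2 (0.93, SE 0.20, 0.0340). Called lower were 3 (2.57% of all rows), Lcn2 (-1.57, SE 0.23, 0.0134), Cp (-1.25, SE 0.20, 0.0187) and Ltf, the milk protein lactoferrin (-1.10, SE 0.17, 0.0175). After centring Steap2 was no longer called (0.77, SE 0.19, adjusted p = 0.0534 in limma), and the other 4 were.

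Of the SPRY domain and SOCS box proteins and their partners 5 were measured, with a median of -0.13 in Thy-1+ cells against -0.46 for all rows, and of 0.33 after centring, with 3 above and 2 below 0. Spsb1, the relative of Spsb4, was at -1.15 (SE 0.45) and Pawr, a pro-apoptotic substrate of these adaptors, at -1.22 (SE 0.50), and after centring they were at -0.70 (SE 0.34) and -0.77 (SE 0.41). Between luminal populations Eloc, the elongin C subunit that the SOCS box binds, was called higher in CD24highCD49fmed cells by 0.96 (SE 0.18, adjusted p = 0.0269 in limma), in the direction of Spsb4, and Met, the hepatocyte growth factor receptor, was called lower (-1.24, SE 0.18, adjusted p = 0.0136 in limma).

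The 4 measured pentraxins and AMPA receptor subunits went both ways in Thy-1+ cells, 2 above and 2 below 0, with a median of -0.15 (0.31 after centring). Ptx3, the long pentraxin of innate immunity, was -1.35, 0.90 and -1.34 in Thy-1+ arrays and 0.09 to 1.72 in other basal arrays, a difference of -1.84 (SE 0.53). Nptx2, the closest relative of Nptx1, was 0.13, 0.16 and -0.13 in Thy-1+ arrays and 0.40 to 1.04 in the other basal arrays, and differed by -0.57 (SE 0.41), near the -0.46 of all rows. After centring its Thy-1+ values of 0.88, 0.07 and 0.39 spanned the 0.30 to 0.83 of the other basal arrays. The AMPA receptor subunit genes stood above 0, Gria4 at 2.42, -0.27 and 0.85 in Thy-1+ arrays (a difference of 1.22, SE 0.51) and Gria3 at 1.26, 0.47 and 0.07 (0.28, SE 0.45). Ptx3 was called lower in CD24highCD49fmed than CD24medCD49f-/low cells (-1.29, SE 0.22, adjusted p = 0.0216 in limma).

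MICOS and CHCHD proteins, the relatives of Chchd6, had 7 measured members, of which 6 were below 0 in Thy-1+ cells, with a median of -0.64. Chchd4, which imports proteins into the intermembrane space, was at -1.34 (SE 0.51), Chchd3, the MICOS partner of Chchd6, at -1.25 (SE 0.47) and Opa1, the inner membrane fusion GTPase, at -1.15 (SE 0.49). These were the most negative of the group. Apool, the gene above 0, was 0.31, 0.17 and -0.13 in Thy-1+ arrays against -0.31 to 0.05 in the other basal arrays. After centring the group's median was -0.18 against -0.01 for all rows, with 2 above and 5 below 0. Centred Thy-1+ values were -1.46, 0.21 and -0.97 for Chchd4, -0.92, -0.06 and -1.07 for Chchd3, and -1.32, 0.20 and -0.61 for Opa1. The other basal arrays spanned -0.002 to 0.45, -0.39 to 0.33 and -0.14 to 0.24 for these genes. All 7 were above 0 in CD24highCD49fmed relative to CD24medCD49f-/low cells, with a median of 0.35 against 0.14 for all rows, and none passed limma's test (1 had an unadjusted p under 0.05). Centred, 6 were above 0 and 1 below, with a median of 0.19 against -0.02 for all rows. The share of all rows above 0 was not counted, so nothing is read from these counts.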

How the data were processed

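RNA was extracted with Trizol from sorted cells, labelled in 2 rounds of 3′ in vitro transcription per the labels, and hybridised to Affymetrix Mouse Genome 430 2.0 arrays. The authors deposited 1 table of log2 values, for which they ran MIDAS with the robust multichip average (RMA), kept probe sets passing cutoffs on signal and on a 4-fold difference in Cluster 3.0, and subtracted each probe set's mean. GCRMA is listed too in the submitters' processing notes, and the version of RMA or of MIDAS is not given in the sources used here. Centring leaves no absolute level, so no filter on dim probe sets or other background correction could be tried, and the number of arrays limits the precision. The study's methods give ages up to 10 weeks and name CD24medCD49fmed cells CD24lowCD49fmed.

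Of 9645 probe sets, the 8499 with 1 gene symbol were averaged to 6044 genes, and 199 with several symbols and 947 with none kept their own rows, which gave 7190 rows. Comparisons without Thy-1+ arrays were tested two-sided with limma 3.58.1 (functions lmFit and eBayes, R 4.3.3) in fits of the groups compared. A call was a p under 0.05 after Benjamini-Hochberg adjustment over all rows. Other comparisons are differences with limma's SE. The rank products of the study's methods were not run. Tables and plots used Python 3.11.15, numpy 2.4.6, pandas 2.3.3 and matplotlib 3.10.9. The limma step was tested on simulated data.

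The 6 genes, the marker lists and the lists of relatives were chosen with earlier results of these arrays known. Genes named are the 6, those on the lists of relatives, and the 3 with the highest correlation to each of the 6. Marker genes were named after their values were seen. Alternatives were a joint fit of all 14 arrays, a block for the replicate number, centring or quantile normalization of arrays, probe sets on their own rows, array weights and leaving out each array. Deviations from group means correlated between same-numbered arrays of Thy-1-CD24medCD49fhigh and CD24medCD49fmed cells (r = 0.37, 0.33 and 0.56) and of Thy-1+ and CD24medCD49fmed cells (0.39 for each number). Same-numbered Thy-1+ and Thy-1-CD24medCD49fhigh arrays gave 0.00, -0.16 and 0.25. Arrays of different numbers were not correlated in this way and no label pairs arrays, so whether the numbers mark true pairs is not known.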

Additional observations from a re-analysis of the deposited data

How the results depend on the processing

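All 6 genes stayed lower in Thy-1+ cells than in both other basal populations, and than in each of them, under every alternative run. Since the genes were chosen from these arrays for being lower there, a kept sign was largely fixed in advance. Their median difference from both others, -2.33, ranged from -3.35 without Thy-1+ replicate 2 to -1.86 without replicate 1 when single arrays were left out, and Chchd6 against CD24medCD49fmed cells went from -1.65 to -0.51 without Thy-1+ replicate 1. Between Thy-1-CD24medCD49fhigh and CD24medCD49fmed cells the count of calls was 0 in all settings but 1, ranging from 0 to 1 when single arrays were left out. Spsb4, which was not called there, turned from 0.02 to -0.16 with array weights, and ranged from -0.33 to 0.33 without single arrays. Between CD24highCD49fmed and CD24medCD49f-/low cells the 402 calls became 4 with all 14 arrays in 1 fit, 608 with probe sets on their own rows and 727 with array weights, and ranged from 0 without CD24medCD49f-/low replicate 1 to 662 without CD24highCD49fmed replicate 1 (145 without its replicate 2, 3 without its replicate 3). The cause was not tested. Centring kept the count at 402 but moved the split from 217 higher and 185 lower to 126 and 276, and quantile normalization gave 139 and 237. Uncalled differences turned sign there for Bex1 (-0.11 to 0.060 with array weights, and -0.29 to 0.23 without single arrays) and Nptx1 (0.01 to -0.15 after centring, and -0.13 to 0.19 without single arrays).

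With the replicate number as a block (replicate block), the luminal comparison had 829 calls, Nptx1 stood at -0.052 there and Spsb4 at 0.98 (adjusted p = 0.00778 in limma), though only 2 numbers are shared and nothing in the labels pairs these arrays (deviations correlated at 0.30 and 0.15). Between Thy-1-CD24medCD49fhigh and CD24medCD49fmed cells, where deviations of same-numbered arrays correlated, the replicate block left the count of calls at 0, and it changed no other call of the 6 genes.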
